A study of Homo sapiens with 30 samples.

Results

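VEGF was added for 24 h to Eahy926 cells, and their open chromatin was compared with that of Eahy926 cells kept in medium without VEGF. The comparison used 6 of the 30 ATAC-seq libraries of the series, chosen by title: 3 libraries of cells given VEGF and 3 of controls, all prepared on day 1. ATAC-seq uses the Tn5 transposase to tag DNA that is accessible in the nucleus. Eahy926 is an endothelial hybrid line, made by fusing umbilical vein endothelial cells with a lung carcinoma line. All cells were parental, with no edited gene, and grew in DMEM with 10% FBS, so both groups had serum. VEGF was given at 1x of its concentration in the LifeLine endothelial medium kit, and the labels give no mass concentration. Other libraries of the same line served as a scale: cells given 10 ng/ml IL1b or 10 ng/ml TNFa for 24 h on day 1, and untreated controls prepared on day 0. In TeloHAEC, an aortic endothelial line immortalised with telomerase whose medium contains VEGF, VEGF was withheld for 24 h. Replicates are biological per the labels, which do not say whether each came from its own culture.

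VEGF binds the receptor tyrosine kinase KDR on endothelial cells, with FLT1 as a high-affinity decoy-like receptor and the neuropilins NRP1 and NRP2 as co-receptors. KDR signals through phospholipase C gamma to the MAP kinases ERK1 and ERK2 and to calcineurin and NFAT. Within the first hours this induces early response genes such as EGR and NR4A factors, DUSP phosphatases that switch ERK off, and RCAN1, an inhibitor of calcineurin. Over longer times it induces genes of tip cells, which lead a vessel sprout, among them DLL4, ESM1 and ANGPT2.

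The 3 VEGF libraries kept 3577273, 5605334 and 6106427 tags after removal of duplicates, and the 3 controls kept 7456417, 5445823 and 5787194. VEGF replicate 1 stood apart from the rest. Its list had 49774 autosomal peaks, against 60478 to 83235 in the other 11 Eahy926 libraries of day 1, and the fragment length in its file header was 169 bp against 108 to 140 bp. Each list was therefore shortened to its 49774 strongest peaks. To score a region, 49774 plus 1 was divided by the place of its peak and the log2 taken, so a score of 1 more means a place nearer the top by a factor of 2. A region without a peak scored 0. Changes below are differences in this score, VEGF minus control, with the standard error (SE) of the fit in limma unless SD is stated. A lower place can come from fewer cells with the site open or from less opening per cell, which cannot be told apart.

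The label of the line was checked against markers by asking in how many libraries 1 of the 45000 strongest peaks lay within 1 kb of the gene's start. Of 9 endothelial markers, the receptors KDR and TIE1 had such a peak in all 6 libraries. CDH5, the endothelial cadherin, had one in 3 of 3 controls and 2 of 3 VEGF libraries. TEK had one in 1 control, and ESAM in 1 VEGF library. PECAM1, ERG, CLDN5 and VWF had none in any of the 6. These genes also had none in the TeloHAEC controls of day 1, where 3 of the 9 markers had a peak in all 3 libraries. Beyond 1 kb, a region 502 bp from the one tested at 2.5 kb from PECAM1 held peaks in every library. Its places were 3203, 9088 and 17979 in the controls and 8096, 13394 and 7706 with VEGF. Of 8 epithelial markers, KRT8 had a peak in 3 controls and 2 VEGF libraries and ELF3 in 2 controls and 1 VEGF library, while the other 6 had none. In the longer list of 15 epithelial genes, CLDN1 and FOXA1 had a peak in all 6 libraries and KRT7 in 3 controls and 2 VEGF libraries. No marker of either kind had a peak in all 3 libraries of a group and none of the other.

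No region of the 56650 tested passed an adjusted p of 0.05 between VEGF and control cells in limma with Benjamini-Hochberg adjustment (0 regions, 0%). The smallest adjusted p was 0.124. Without VEGF replicates 1, 2 and 3 in turn there were 3, 2 and 0 calls, and without control replicates 1, 2 and 3 there were 5, 2 and 5. With only the 6 libraries in the fit there were 10. At an unadjusted p under 0.05 there were 2875 regions (5.08%), of which 1395 were higher and 1480 lower with VEGF. All 3 VEGF libraries scored above all 3 controls in 2391 regions (4.22%) and below them in 2473 regions (4.37%). In the same fit, TNFa against the same 3 controls gave 151 called regions (0.267%) and IL1b gave 2 (0.00353%). These comparisons share their controls with VEGF. Untreated controls of day 0 and day 1 differed in 8217 of 46716 regions (17.6%), and the file headers give those libraries tag lengths of 30 and 40 bp. That count came from a separate fit of only those 6 libraries, with regions chosen in them alone. The like fit for VEGF is the one with only its 6 libraries, where 10 of 45765 regions were called.

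**Figure D1:**
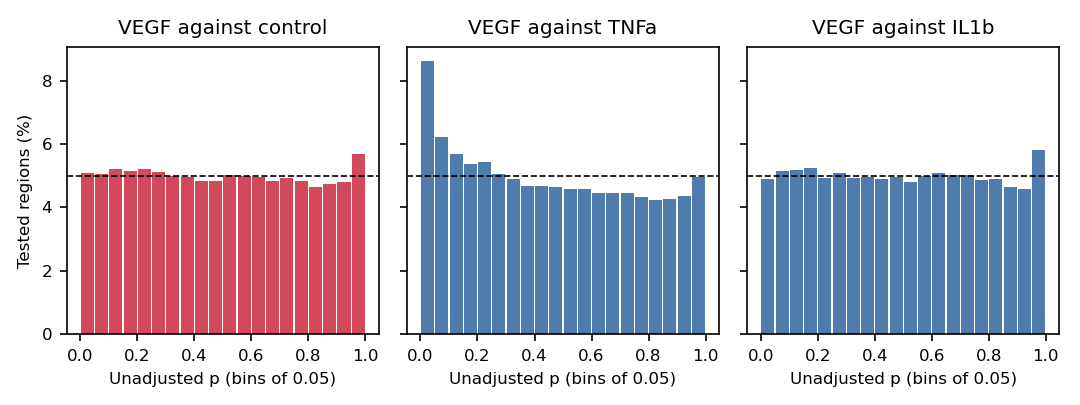
Share of tested regions (vertical axis, percent) by unadjusted p from limma (horizontal axis, 20 bins of 0.05) for VEGF against control, against TNFa and against IL1b in Eahy926; the dashed line marks 5%. The lowest bin holds 5.08% of regions for VEGF against control, 8.64% against TNFa and 4.90% against IL1b.

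The size of change that these libraries could resolve was read from the fit. The median SE was 0.48. The 95% interval of the change lay within 2 either way for 48345 regions (85.3%) and within 1 either way for 18898 (33.4%). Among the 3832 regions with the best mean places, up to 5000, the median SE was 0.87 and 806 had an interval within 2 either way.

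Presence and absence of peaks was counted without a model. Of 67740 regions with 1 of the 45000 strongest peaks in any of the 6 libraries, 26117 (38.6%) had one in all 6. Peaks in 3 of 3 VEGF and 0 of 3 control libraries were found in 292 regions (0.431%), and the reverse in 350 (0.517%). For IL1b and the same controls these counts were 263 and 314, and for TNFa 708 and 620. For controls of day 0 against day 1 they were 1913 and 1975. Without VEGF replicate 1, regions with a peak in 2 of 2 VEGF and 0 of 3 control libraries numbered 802, and the reverse 695.

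**Figure D2:**
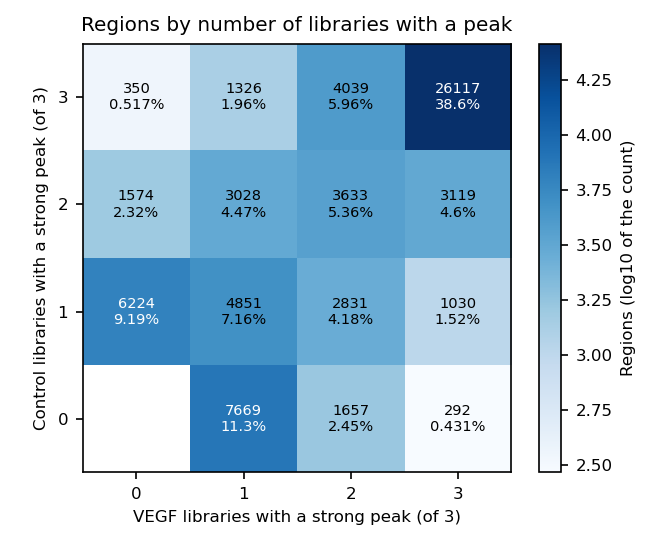
Number and share of regions by how many of 3 VEGF libraries (horizontal axis) and 3 control libraries (vertical axis) had 1 of their 45000 strongest peaks there, over 67740 regions; the colour is log10 of the count. The corner with peaks in all 6 libraries holds 26117 regions, against 292 and 350 in the corners where the groups are opposite.

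Whole lists were compared by the sequence that strong peaks share. The Jaccard index is the length covered in both lists over the length covered in either. Its median was 0.586 over the 9 pairs of a VEGF and a control library, 0.592 over the 3 pairs of controls and 0.547 over the 3 pairs of VEGF libraries. Of the pairs with a VEGF library, the lowest values of each kind came from VEGF replicate 1. Without it the median between VEGF and control was 0.591, and the only remaining pair of VEGF libraries had 0.587. The median between VEGF and TNFa libraries was 0.545, and 0.555 without VEGF replicate 1. Controls of day 1 and day 0 shared 0.538.

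**Figure D3:**
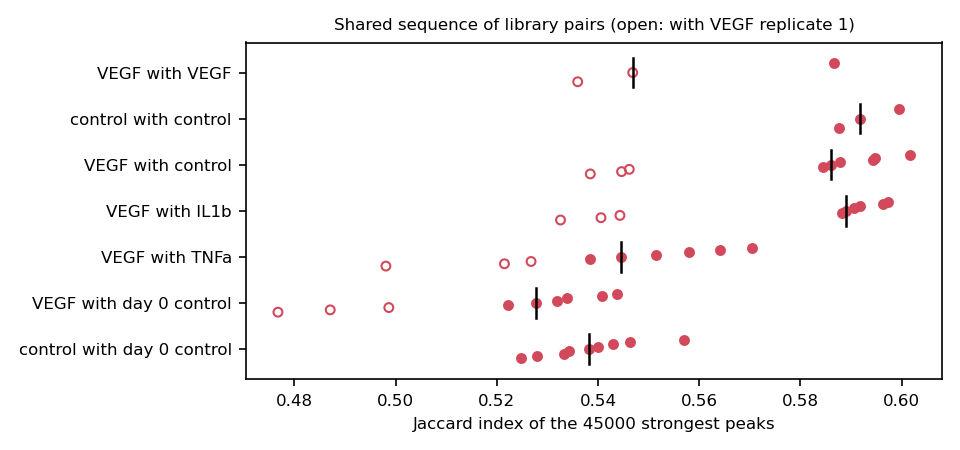
Jaccard index of the 45000 strongest peaks (horizontal axis) for pairs of Eahy926 libraries by kind of pair (vertical axis); each point is a pair, open where it includes VEGF replicate 1, and the line is the median. VEGF and control libraries have a median of 0.586, close to the 0.592 of controls with each other, and the pairs of day 0 and day 1 sit lower, at 0.538.

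The promoters of 3 genes show where the peaks described next lie, and each stands for a different role: KDR is the VEGF receptor, VEGFC a ligand of the family, and DUSP6 a phosphatase that switches ERK off. The sequences are the 250 bases before each gene's start from RefSeq, on GRCh38.p14, 5′ to 3′ on the strand of the gene, while all peak positions are on hg19. Capitals mark GGAA or its reverse complement TTCC, the core recognised by ETS factors, a family that includes the endothelial factors ERG and FLI1.
KDR: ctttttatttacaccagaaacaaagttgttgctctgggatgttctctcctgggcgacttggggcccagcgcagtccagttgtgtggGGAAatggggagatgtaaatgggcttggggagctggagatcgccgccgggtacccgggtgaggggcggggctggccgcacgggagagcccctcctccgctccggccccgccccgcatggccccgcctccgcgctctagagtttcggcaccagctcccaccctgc
VEGFC: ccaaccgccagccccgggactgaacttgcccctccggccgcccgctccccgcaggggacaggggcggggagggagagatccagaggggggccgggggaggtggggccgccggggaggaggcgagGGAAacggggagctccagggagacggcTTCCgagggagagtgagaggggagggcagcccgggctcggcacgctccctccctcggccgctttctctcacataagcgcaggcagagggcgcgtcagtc
DUSP6: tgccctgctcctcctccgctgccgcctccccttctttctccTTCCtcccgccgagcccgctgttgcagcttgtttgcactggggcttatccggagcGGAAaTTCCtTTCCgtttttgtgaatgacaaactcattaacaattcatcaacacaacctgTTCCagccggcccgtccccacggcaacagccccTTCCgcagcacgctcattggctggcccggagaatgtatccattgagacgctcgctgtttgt

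The windows hold 1 match in KDR, 2 in VEGFC and 6 in DUSP6, on either strand. Such a match is common: 92.8% of 27305 RefSeq promoter windows of 250 bases hold at least 1, with a median of 3. GGGCGG, the GC box bound by SP1, occurs 2 times in KDR and 2 times in VEGFC, and in none of the DUSP6 window, against 42.3% of all windows. TGANTCA, the AP-1 site, and CACGTG, the E-box, occur in none of the 3 windows and in 6.60% and 6.49% of all windows.

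Among the receptors, the KDR promoter was placed higher in every VEGF library than in any control. Its region, chr4:55991541-55992041 on hg19 and centred 29 bp from the start, held places 30036, 33878 and 23461 in the controls and 13110, 16334 and 18103 with VEGF. The mean score was 0.79 ± 0.27 (SD, n = 3) in controls and 1.66 ± 0.24 (SD, n = 3) with VEGF, a change of 0.87 ± 0.51 (SE). The groups did not overlap, but the 95% interval ran from -0.17 to 1.92 and the adjusted p in limma was 0.967. With IL1b the places were 15546, 38198 and 27282, and with TNFa 32136, 38096 and 15133, so single cytokine libraries reached the places seen with VEGF. In TeloHAEC the KDR promoter held places 14644, 33406 and 3514 with VEGF and 32509, 13785 and 24480 without, a change of 0.89 ± 0.71 with overlapping groups.

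The co-receptors overlapped between the groups. NRP1 held places 18028, 44334 and 22618 in the controls and 17351, 29801 and 28594 with VEGF, a change of 0.10 ± 0.50. NRP2 held 9804, 12252 and 12664 in the controls and 6170, 15641 and 13387 with VEGF, a change of 0.08 ± 0.57. The NRP1 and NRP2 promoters each had a peak in all 6 libraries. FLT1 had no peak within 1 kb of its start in any of the 6, and its only tested region lay 18.8 kb away, with places 40743, none and 49058 in the controls and no peak with VEGF. FLT4, the receptor of VEGFC, had no tested region within 50 kb.

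Among the ligands, VEGFC had the lowest unadjusted p of the gene panel. The region at its start, chr4:177713850-177714350, held places 42587, 20597 and 38976 in the controls and no peak in the 3 VEGF libraries. It held no peak in the TNFa libraries either, and places 47911, none and none with IL1b. The mean score was 0.62 ± 0.57 (SD, n = 3) in controls and 0 with VEGF, a change of -0.62 ± 0.22 with an adjusted p of 0.967 in limma. The region entered the test only through the 3 controls, where it is high, so its low unadjusted p is no support for a difference. All 3 VEGF libraries nevertheless had a peak within 1 kb of the start. It lay in the region centred 512 bp away in VEGF replicates 1 and 2, at places 44106 and 41133, and in a further region in replicate 3, at place 43311. A peak within 1 kb of the start was thus present in all 6 libraries, in different windows for the 2 groups. At VEGFA, the gene of the growth factor itself, the region at the start had no peak in the controls and places 41252, 39277 and none with VEGF, a change of 0.20 ± 0.22. Its neighbour 700 bp away held 44647, 44274 and none in the controls and none, none and 38382 with VEGF, a change of 0.02 ± 0.18. PGF, placental growth factor, overlapped at its promoter, with places 7337, 7595 and 19223 against 23865, 5148 and 11504.

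A pair of regions at lower coordinates than the PGF start were placed lower with VEGF, without overlap. At chr14:75389684-75390184, 32.5 kb from the start, places were 22716, 23226 and 22213 in the controls and 45411, 48192 and 49119 with VEGF, a change of -1.07 ± 0.30. At chr14:75398935-75399435, 23.3 kb away, they were 1845, 1383 and 3709 against 8379, 9752 and 7218, a change of -1.99 ± 0.74. Both had an adjusted p of 0.967 in limma. At the first, day 0 controls held 13745, 14961 and 17823, and TNFa libraries 40421, none and 40002. At the second, TNFa libraries held 5919, 5181 and 4555. Over the whole list of 9 receptors and ligands, 55 regions lay within 50 kb of 8 genes, none was called, 1 was higher and 4 lower at an unadjusted p under 0.05 (9.09%, against 5.08% over all tested regions), and the median change was 0.02. Over all tested regions the median was 0.

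Among negative regulators of ERK, the DUSP6 promoter held places 4356, 3255 and 8594 in the controls and 1971, 1765 and 2891 with VEGF. The mean score was 3.33 ± 0.72 (SD, n = 3) in controls and 4.53 ± 0.37 (SD, n = 3) with VEGF, a change of 1.20 ± 0.77 with a 95% interval from -0.38 to 2.78. The groups did not overlap, and 1 IL1b library, at place 822, was higher than all of them. SPRY2, an inhibitor of receptor tyrosine kinase signalling, held places 21279, 16766 and 7296 at its start against 6881, 5114 and 6193, a change of 1.19 ± 0.59. A region 18.9 kb from the start of MAP2K1, the kinase MEK1, held 31321, 22838 and 38536 against 3109, 15501 and 18341, a change of 1.65 ± 0.57, or 0.84 without VEGF replicate 1. The adjusted p was 0.967 for each of the 3 in limma. The list of 13 VEGF signalling genes had 65 regions, of which 1 was higher and 0 lower at an unadjusted p under 0.05, with a median change of 0.02.

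Early response genes included some of the best placed promoters of the panel and no called region. The promoter of EGR1, a zinc finger factor induced by ERK, held places 4409, 5134 and 2848 in the controls and 2682, 3273 and 2518 with VEGF, a change of 0.51 ± 0.68. NR4A1, an orphan nuclear receptor, held 26749, 17567 and 23962 at its start against 5082, 14460 and 21913, a change of 0.94 ± 0.59 in which VEGF replicate 1 stood highest. The NR4A1 change was 0.33 without that library and -0.05 where a peak had to cover 80% in place of 50%. RCAN1 held 6742, 1852 and 337 against 7303, 2474 and 5698, a change of -1.54 ± 0.84, with the control at place 337 apart from the others. Without control replicate 3 it was -0.41, and without control replicate 1 it was -2.57. Against all controls the RCAN1 change was -1.40 with TNFa and -1.75 with IL1b. The SD of the RCAN1 control scores was 2.17, the largest of the panel. EGR3, NR4A2 and DUSP5 overlapped between groups, with changes of -0.11 ± 0.45, -0.11 ± 0.26 and -0.35 ± 0.52.

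Other windows near early response genes differed in both directions. The KLF6 promoter held 7493, 6112 and 5151 in the controls and 817, 1895 and 2896 with VEGF, a change of 1.91 ± 0.69, or 0.54 at 80% overlap. A region 18.3 kb from the NR4A1 start held 9176, 5439 and 6051 against 2890, 1476 and 1636, a change of 1.81 ± 0.69. A region 15.3 kb from the EGR1 start held 4028, 8393 and 6871 against 16119, 15712 and 17942, a change of -1.43 ± 0.56. None of the 3 overlapped between groups, and each had an adjusted p of 0.967 in limma. Against the same controls, TNFa and IL1b in turn gave changes of -1.33 and -1.13 at the region near EGR1. They gave 0.38 and 0.37 at KLF6, and 1.00 and 0.95 at the region near NR4A1. Of the 88 regions of the 13 early response genes, 9 lay above all controls and 4 below, where the shares over all tested regions were 4.22% and 4.37%. At an unadjusted p under 0.05, 4 were higher and 2 lower, 6.82% against 5.08% over all, and the median change was 0.01.

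Of 71 regions near 13 tip cell genes, 0 were higher and 0 lower at an unadjusted p under 0.05, and the median change was 0.01. All 3 VEGF libraries scored above the controls in 6 of the 71 and below them in 3, where the shares over all tested regions were 4.22% and 4.37%. DLL4, the Notch ligand of the tip cell, held places none, 37124 and 32856 at its start in the controls and none, 41149 and none with VEGF. ESM1, a secreted proteoglycan, held 7698, 10980 and 4647 against 10075, 8193 and 7108, a change of -0.19 ± 0.69. The netrin receptor UNC5B held 43349, 27335 and 34340 against none, none and 44023, a change of -0.47 ± 0.29 without overlap. ANGPT2, the ligand that loosens vessel walls, had a change of -0.22 ± 0.56 at its nearest region and -1.44 ± 0.75 at a region 4.2 kb from the start. ANGPTL4, an inhibitor of lipoprotein lipase, had a change of 1.34 ± 0.71 at 2.0 kb, or 0.79 without VEGF replicate 1.

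Among genes of coagulation and matrix proteolysis, the windows named here were placed lower with VEGF or overlapped. A region 11.5 kb from PLAU, the urokinase gene, held 12103, 10458 and 5582 against 31994, 20765 and 17979, a change of -1.36 ± 0.54. A region 31.2 kb from PLAUR, the urokinase receptor gene, held 3444, 4898 and 3803 against 12874, 13123 and 9406, a change of -1.54 ± 0.64. From the same controls, TNFa and IL1b in turn gave -1.14 and -0.29 at the PLAU region, and 0.19 and -0.15 at the PLAUR region. The promoter of F3, tissue factor, overlapped, with a change of 0.27 ± 0.41. The list had 62 regions near 11 genes, 1 higher and 2 lower at an unadjusted p under 0.05, and a median change of -0.04.

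Endothelial identity, Notch and AP-1 lists had 159, 63 and 111 regions and no call. The flow-induced factors KLF2 and KLF4 changed by -0.29 ± 0.52 and 0.30 ± 0.50 at their promoters, and CDH5 by -0.13 ± 0.41, all with overlapping groups. A region 16.5 kb from the CDH5 start held 10854, 6113 and 4193 in the controls and 1223, 1195 and 3472 with VEGF, a change of 1.93 ± 0.73 with an adjusted p of 0.967 in limma. It shared its peak with a region 617 bp away in 4 of 6 libraries, where the controls held 3048, 3510 and 4193, and its change was 1.31 at 1 bp of overlap and 0.04 at 80%. HEY2, a Notch target, held 6938, 9701 and 13626 at its start against 15227, 21980 and 19661, a change of -0.95 ± 0.54. The HEY2 change from the same controls was -1.38 with TNFa and -0.73 with IL1b. A region 1.2 kb from FOS, an AP-1 subunit, held no peak in the controls and places 27481, 17578 and 26097 with VEGF, a change of 1.10 ± 0.33. In 2 of those 3 libraries its peak was also that of a region 531 bp away, and when a peak was given to a region at 1 bp of overlap in place of 50% the change was 0.17. Near NOTCH1 a region with a change of 2.36 ± 0.61 shared its peak with a region 549 bp away in 4 of 6 libraries, with a change of 1.05 at 1 bp of overlap and -0.26 at 80%.

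Median changes over the identity, Notch and AP-1 lists were 0.00, 0.04 and 0.02. Epithelial genes, tested since the line is a hybrid, had 77 regions, 3 higher and 1 lower at an unadjusted p under 0.05, and a median of -0.05. Housekeeping genes, which serve as a control list, had 99 regions, 4 higher and 3 lower, and a median of 0.00. The share past an unadjusted p of 0.05 was 5.08% over all tested regions and 7.07% in the housekeeping list. In the other lists it was 9.09% for receptors and ligands, 6.82% for early response, 5.19% for epithelial, 4.84% for coagulation and proteolysis and 4.50% for AP-1 genes. It was 1.89% for endothelial identity, 1.59% for Notch, 1.54% for VEGF signalling and 0% for tip cell genes. Over the whole panel of 25 genes, 24 had a tested region within 50 kb, 2 of these lay above all controls, 2 below and 20 overlapped, where 4.22% and 4.37% of all tested regions lay above and below. The 95% interval held 0 for 23 of the 24.

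**Figure D4:**
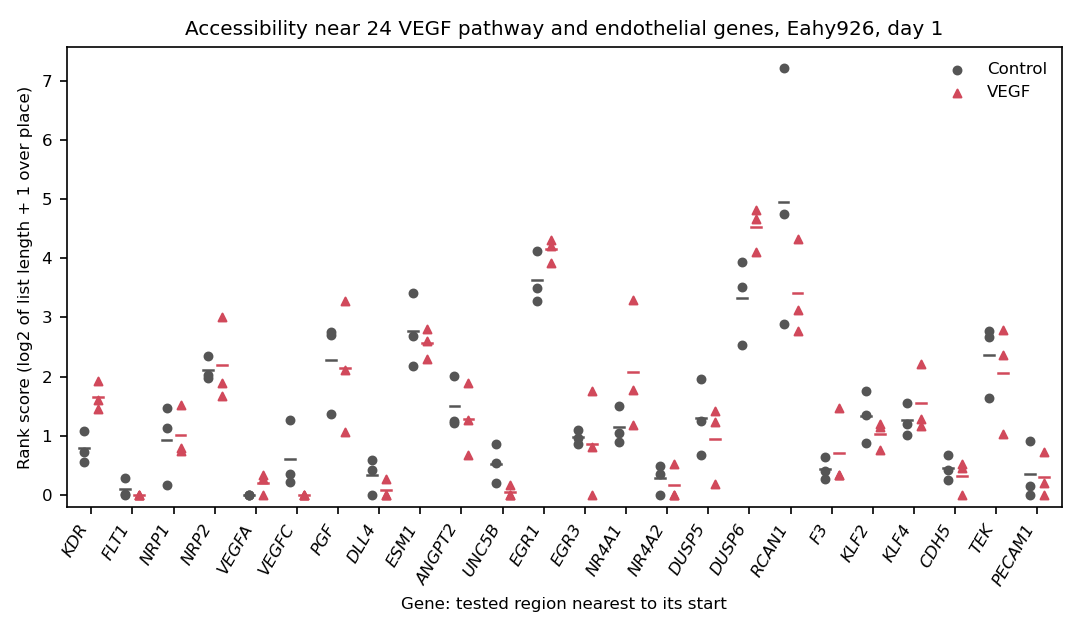
Rank score (vertical axis, log2 of list length plus 1 over place, 0 without a peak) of the tested region nearest to the start of each of 24 genes (horizontal axis) in 3 control (circles) and 3 VEGF libraries (triangles); bars are means. KDR and DUSP6 are higher in all 3 VEGF libraries than in any control, VEGFC and UNC5B lower, and the other 20 overlap.

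The 10 regions with the smallest p, 5 in each direction, all lay within 1 kb of another region. Of all tested regions 21.6% did, and of the 52 with an unadjusted p under 0.001, 51.9%. The smallest p belonged to chr16:2097079-2097579, 0.5 kb from the start of NTHL1, a DNA repair glycosylase. It held places 1688, 317 and 995 in the controls and 4344, 33087 and 42732 with VEGF, a change of -4.50 ± 0.77. Against the same controls the change there was -5.80 ± 0.77 with TNFa and -3.68 ± 0.77 with IL1b. A region 551 bp away held the same peak as this one in 4 of the 6 libraries. That neighbour held places 1688, 317 and 995 in the controls and 4344, 866 and 1889 with VEGF. With a peak given to a region at 1 bp of overlap, the change at the first region was -1.25.

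The next lower region lay 0.5 kb from LMLN, a metallopeptidase gene, with places 1262, 3061 and 8536 in the controls and no peak with VEGF. Its change from the same controls was -2.90 ± 0.72 with TNFa and -3.04 ± 0.72 with IL1b. The neighbour of the LMLN region, 561 bp away, held the same places in the controls and 989, 5212 and 9380 with VEGF. At 1 bp of overlap the VEGF change went from -3.96 to -0.18. At ZNF302, a zinc finger gene, it went from -3.68 to 0.56, and at CRIPT, which encodes a postsynaptic scaffold binding protein, from 2.37 to -0.36. With TNFa and IL1b in turn, the ZNF302 region changed from control by -1.52 and -0.59. The lower regions on chromosomes 4 and 20 changed by -4.59 and -4.64, and by -2.89 and -2.89. The promoter of POGLUT3, an O-glucosyltransferase gene, kept its change of 4.93 ± 1.03 at 1 bp of overlap. It held 28738, 18009 and 28730 in the controls and 2428, 204 and 1052 with VEGF. The neighbour 554 bp away held 2119, 387 and 699 in the controls and the same peak as the POGLUT3 region in all 3 VEGF libraries. Single IL1b and TNFa libraries also placed the POGLUT3 region at 1499 and 983. The region at chr6:151381225-151381725 held 11599, 8680 and 15932 in the controls and 757, 1352 and 2619 with VEGF. Its change of 3.08 ± 0.68 (adjusted p 0.426 in limma) was the same at 1 bp of overlap and 3.78 at 80%. Leaving out 1 VEGF or control library gave 2.64 to 3.53. It shared its peak with a region 533 bp away in 5 of 6 libraries. IL1b and TNFa changed it from control by 1.85 and 1.00. MCPH1 kept its change of 1.52 at 1 bp, with VEGF peaks shared with a neighbour. Restricted to the 44420 regions with no other region within 1 kb, no region was called (0 in limma, smallest adjusted p 0.95, and 2316 at an unadjusted p under 0.05).

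**Figure D5:**
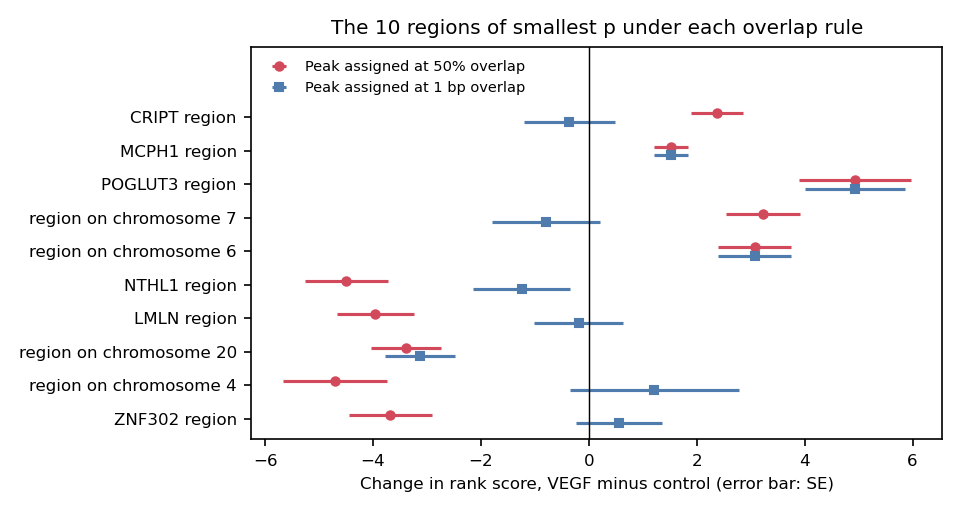
Change in rank score, VEGF minus control (horizontal axis, error bars SE), of the 10 regions of smallest p (vertical axis), with peaks given to regions at 50% overlap (circles) or 1 bp overlap (squares). The changes at CRIPT, LMLN, ZNF302 and the regions on chromosomes 4 and 7 are near 0 or of the other sign at 1 bp, the change at NTHL1 is -1.25, and those at MCPH1, POGLUT3 and on chromosomes 6 and 20 stay near their first value.

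VEGF libraries were also set against the cytokine libraries, which leaves the controls out. Against TNFa, 171 of 56650 regions were called (0.302%), 15 higher and 156 lower with VEGF. In the 156, the median of the mean scores was 0.00 with VEGF and 1.997 with TNFa, and in the controls and IL1b libraries 0.06 and 0.01. The controls and IL1b libraries are not in the contrast but share its estimate of the spread and its filter. With scores near 0 in those groups and with VEGF, many of the 156 can have met the filter only through TNFa libraries, where they are high. How many did so was not counted. The VEGF and TNFa medians also come from the values that made the calls. Neither the count of 156 nor these medians are therefore support beyond the values given. In the 15, the median was 3.55 with VEGF, 0.18 with TNFa and 2.55 in the controls, and 13 of the 15 had another region within 1 kb, against 16 of the 156. Without VEGF replicates 1, 2 and 3 in turn, 34, 51 and 27 regions were called against TNFa.

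A pair of the 156 lay within 50 kb of a gene of the lists. At chr2:206577157-206577657, 30.2 kb from the NRP2 start, places were 5240, 15885 and 14179 with TNFa, none, none and 46280 with VEGF, and none, 33998 and none in the controls. VEGF minus TNFa was -2.20 ± 0.41 with an adjusted p of 0.013 in limma, and VEGF minus control -0.15 ± 0.41. At chr5:137796946-137797446, 4.0 kb from the EGR1 start, TNFa libraries held 24539, 25877 and 15308, and VEGF and control libraries no peak. VEGF minus TNFa was -1.22 ± 0.26 with an adjusted p of 0.0295 in limma. At both regions the filter was met by the TNFa libraries, where the score is high, and by no VEGF library. Both p values are therefore no support beyond the places given.

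Against IL1b, 1 region was called (0.00177%), chr2:136289314-136289814, which held places 794, 698 and 691 with VEGF and no peak with IL1b. The controls held 743, 49323 and 661 there, and another region lay 599 bp away. Without VEGF replicates 1, 2 and 3 in turn, 0, 4 and 0 regions were called. At an unadjusted p under 0.05 there were 2778 regions for VEGF against IL1b.

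In TeloHAEC, VEGF present against withheld gave 0 called of 58694 regions in limma (0%), with 2951 at an unadjusted p under 0.05 and a smallest adjusted p of 0.0534. The difference of the VEGF effect between the lines gave 0 called of 77247 regions (0%), with 4429 at an unadjusted p under 0.05. Of the 40136 regions tested in both lines, 127 had an unadjusted p under 0.05 in each, and 48 of these had the same sign. Over all regions tested in each line, 5.08% in Eahy926 and 5.03% in TeloHAEC had an unadjusted p under 0.05 in limma. The Pearson correlation between the lines over the 40136 regions was -0.06. For KDR the effects were 0.87 ± 0.51 in Eahy926 and 0.89 ± 0.71 in TeloHAEC, while for KLF6 they were 1.91 ± 0.69 and -0.66 ± 0.75, and neither difference between the lines was called.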

How the data were processed

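The submitters' processing notes name Bowtie2, hg19 and MACS2. Per the file headers, MACS2 2.1.1.20160309 called peaks on each library alone at a p of 0.001, with no control library. The deposited tables give the pileup (coverage signal), p and q as -log10, and fold enrichment (a ratio to local background) per summit, and no counts per region, so only the order by the authors' p was used. Summits of 1 interval were merged, the 22 autosomes kept and lists shortened to 49774 peaks. The 45000 strongest peaks defined 107672 regions of 501 bp, and a peak counted at 50% overlap. Regions with a strong peak in at least 3 of the 12 Eahy926 libraries of day 1 were fitted in 4 groups with limma 3.58.1 in R 4.3.3 (moderated, trend, two-sided, Benjamini-Hochberg, threshold 0.05), tested on simulated data. Python 3.11.15, pandas 2.3.3, numpy 2.4.6 and matplotlib 3.10.9 did the rest.

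Starts of 138 listed genes on hg19 were written from general knowledge. Of these, 138 lay on the chromosome of the RefSeq gene table, and 63.4% had a strong peak within 1 kb, against 7.37% of positions moved by 20 kb. Exons and introns were not annotated here. RefSeq promoters matched 15 of 25 panel genes by symbol. Members and lists were chosen with earlier results of these data known. Named regions were the nearest tested region of 25 panel genes, the 5 of smallest p in each direction, up to 3 per list whose groups do not overlap, and the best placed peaks of 1 group alone, with some left out for readability. Regions near NRP2 and EGR1 against TNFa, the IL1b call, and gene names beside the regions of smallest p were chosen after their values were seen.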

Additional observations from a re-analysis of the deposited data

How the results depend on the processing

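Calls for VEGF against control rose from 0 to 10 (2 higher, 8 lower) with only the 6 libraries of the 2 groups, to 2 with 1 bp of overlap, to 3 without VEGF replicate 1 on longer lists of 60478 peaks, and to 6 without VEGF replicate 1 and TNFa replicate 3, chosen after seeing the data. Leaving out 1 library gave 0 to 5. Calls stayed at 0 with order by fold enrichment, the 30000 strongest peaks, 80% overlap, normal scores, no filter and 15 libraries with day as a term. Over 19 settings 26 regions were called at least once, 19 of them in 1 setting, and all 26 had another region within 1 kb. With a replicate block there were 2 calls, both lower. After removing group means, 0 of 18 pairs of same-numbered libraries correlated above 0.1. This cannot show whether a number marks a shared culture, which the labels do not state.

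Against IL1b, order by fold enrichment gave 0, and leaving out a VEGF library 0 to 4. Against TNFa, order by fold gave 83, and leaving out a VEGF library 27 to 51. The difference between lines gave 2 without VEGF replicate 1. Peaks only with control numbered 232 with 30000 peaks and, without VEGF replicate 1, 695, and those only with VEGF 802. For 69 named regions, 1147 of 1174 values stayed on their side of the threshold and 19 passed it. A sign counted as reversed where either p was under 0.05 unadjusted. At 1 bp of overlap this held for CRIPT (-0.36), ZNF302 (0.56) and regions on chromosomes 4 (1.22), 7 (-0.79), 8 (0.31) and 11 (-0.0091), and at 80% for NOTCH1 (-0.26) and a region on chromosome 20 (0.15). The causes were not tested.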
